A study of Bos indicus with 11 samples.

Results

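The transcripts of the antioxidant enzymes that remove superoxide and peroxides were described in the bovine endometrium. The list held 10 enzymes chosen by name: SOD1, SOD2, SOD3, CAT, GPX1, GPX3, GPX4, PRDX1, PRDX6 and TXNRD1. Of these, 7 were matched by gene symbol among 24616 genes of the table. No row carried GPX1, GPX3 or GPX4 as its symbol, and these 3 glutathione peroxidases are not analysed here. SOD3 was on the list because earlier results of the same cows were known, so the differences between groups below describe the members, and the calls of tests run across all genes are printed for them only as counts beside those of all genes.

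Endometrial biopsies were obtained on day 6 after artificial insemination (AI) from multiparous, non-lactating Nellore cows (Bos indicus) whose estrus had been synchronized with a prostaglandin analogue. Pregnancy was diagnosed on day 30, and the samples were assigned in retrospect to pregnant (P, n = 6) and non-pregnant (NP, n = 5) groups. All cows were inseminated, and all had been selected for similar plasma progesterone on the day of biopsy. The biopsy came from the uterine horn opposite to the corpus luteum, and its RNA is that of whole tissue. A further NP library had been omitted by the authors because it did not align well to the bovine genome. Each cow gave 1 library and was 1 replicate.

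Superoxide, a by-product of respiration and of oxidases, is converted to hydrogen peroxide by the superoxide dismutases, of which SOD1 works in the cytosol, SOD2 in mitochondria and SOD3 outside the cell, bound to the matrix. Hydrogen peroxide is then broken down by catalase in peroxisomes and by glutathione peroxidases and peroxiredoxins, while thioredoxin reductase uses NADPH to keep thioredoxin, the electron donor of most peroxiredoxins, in its reduced form. In the endometrium of ruminants, expression of these enzymes is known to vary over the estrous cycle.

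Between 9290949 and 13508711 reads were assigned to genes in the P cows and between 9783673 and 13569085 in the NP cows. Values are normalized counts, that is, reads divided by a size factor for each cow, and 1 read was worth 0.784 to 1.14 normalized counts. The members rested on 97 to 15494 reads per cow, so all 7 passed the filter that left 15081 genes for testing. Transcript lengths were not used, and levels are compared between cows and not between genes. The endometrial transcription factors ESR1, PGR, FOXA2, HOXA10 and HOXA11 were present in every cow, with the lowest value for FOXA2 in P617, at 26.0 normalized counts. Cows P617 and P1541 stood apart, with summed smooth muscle markers of 667850 and 501931 normalized counts against 41812 to 282736 in the other cows, and P617 had the lowest summed epithelial markers, at 2964. The results are therefore also given without these 2 cows. In the supplementary sample list of the study P617 is named as non-pregnant, and it was kept as P here, as labelled.

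SOD3 (ENSBTAG00000013980), the secreted dismutase, was the member that separated the groups. It had 174.0 normalized counts in P617, 161.9 in P904, 125.8 in P1541, 131.3 in P1631, 172.1 in P1753 and 112.0 in P2396. In the NP cows it had 295.3 in NP238, 245.5 in NP638, 278.5 in NP856, 272.1 in NP2541 and 361.9 in NP2810. The groups did not overlap: each NP cow lay above each P cow, and the gap ran from 174.0 in P617 to 245.5 in NP638. With P617 counted as NP they would still not overlap, but the gap would run only from 172.1 in P1753 to 174.0 in P617. The P cows averaged 146 ± 26.4 (SD, n = 6) and the NP cows 291 ± 43.6 (SD, n = 5), a ratio of 1.99. The spread within each group was similar, with a coefficient of variation of 18.1% in P cows and 15.0% in NP cows.

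The log2 fold change of SOD3, NP over P on the log2(normalized count + 1) scale, was 0.99 (standard error, SE, 0.163). It ranged from 0.91 to 1.05 over the fits that omitted 1 cow each and was 1.01 (SE 0.173) without P617 and P1541. Cow P617, which had the highest smooth muscle markers, had the highest SOD3 of the P cows. Expressed per count of the cytosolic dismutase SOD1 in the same cow, SOD3 was 0.147 to 0.219 in P cows and 0.306 to 0.403 in NP cows. This ratio restates the difference of SOD3, because SOD1 had a log2 fold change of only 0.04.

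**Figure D1:**
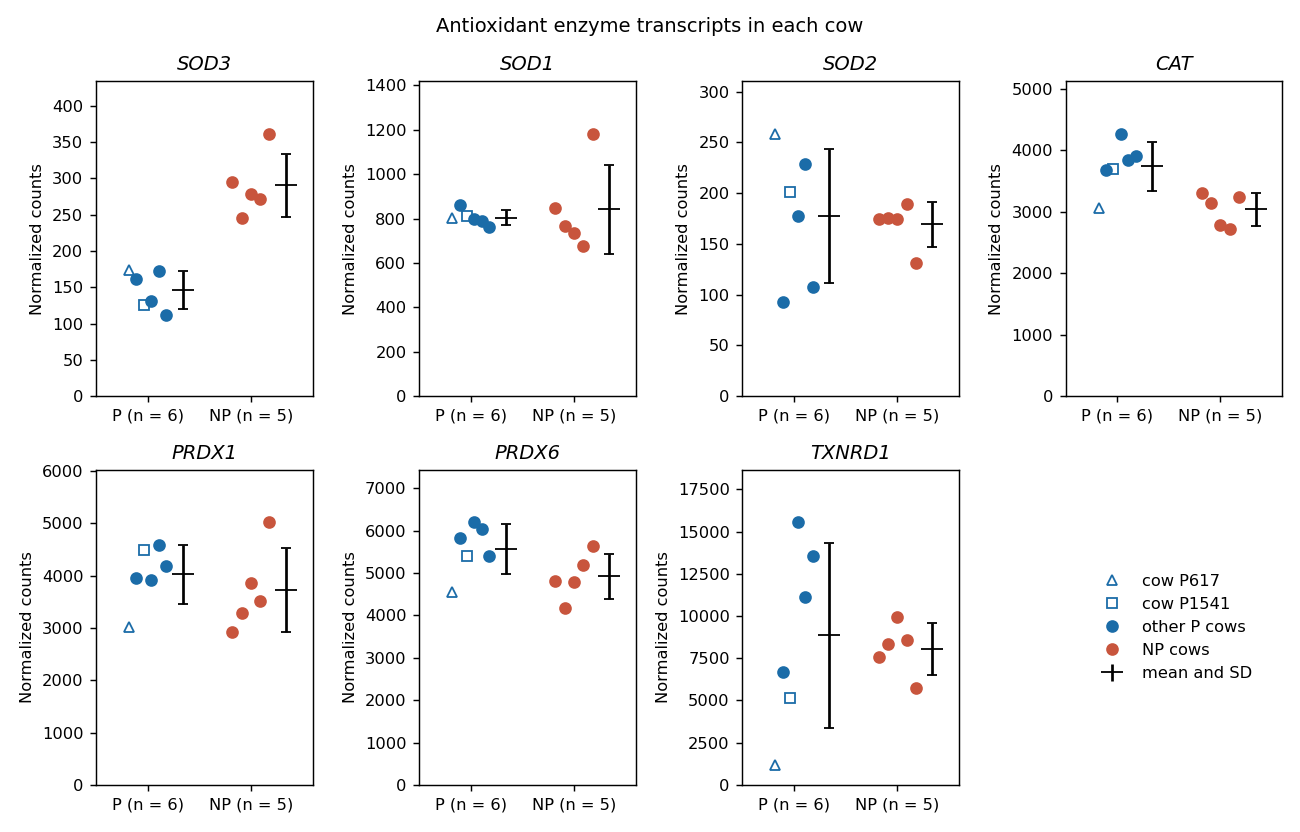
Normalized counts of the 7 matched antioxidant enzymes in each cow, in P cows (n = 6, blue) and NP cows (n = 5, red), with the mean and SD of each group in black; each vertical axis starts at 0 and has its own scale. SOD3 is the panel without overlap between groups (112.0 to 174.0 against 245.5 to 361.9), and TXNRD1 the panel with the widest spread in P cows.

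The cytosolic dismutase SOD1 (ENSBTAG00000018854) had 802.1, 861.3, 813.0, 796.0, 787.2 and 763.1 normalized counts in P617, P904, P1541, P1631, P1753 and P2396. In NP238, NP638, NP856, NP2541 and NP2810 it had 847.6, 767.0, 734.5, 675.2 and 1182.4. The P cows were close together and lay inside the range of the NP cows, and NP2810 was above all other cows. The P cows averaged 804 ± 32.8 (SD, n = 6) and the NP cows 841 ± 201 (SD, n = 5), with a log2 fold change of 0.04 (SE 0.133).

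For the mitochondrial dismutase SOD2 (ENSBTAG00000006523) it was the P cows that were spread out. It had 258.7 normalized counts in P617, 92.9 in P904, 201.3 in P1541, 177.0 in P1631, 228.5 in P1753 and 107.6 in P2396, against 175.0 in NP238, 175.5 in NP638, 174.2 in NP856, 189.8 in NP2541 and 131.5 in NP2810. The NP cows sat within the range of the P cows, with a coefficient of variation of 13% against 37.2% in P cows. The P cows averaged 178 ± 66.0 (SD, n = 6) and the NP cows 169 ± 22.0 (SD, n = 5). The log2 fold change was 0.01 (SE 0.269), opposite in sign to the difference of the means, and became 0.24 (SE 0.265) without P617 and P1541.

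Catalase, CAT (ENSBTAG00000020980), the peroxisomal enzyme that splits hydrogen peroxide into water and oxygen, was higher in most P cows. It had 3055.7 normalized counts in P617, 3680.7 in P904, 3690.6 in P1541, 4273.4 in P1631, 3846.4 in P1753 and 3913.7 in P2396. The NP cows had 3299.3 in NP238, 3151.2 in NP638, 2791.8 in NP856, 2714.0 in NP2541 and 3245.6 in NP2810. Of the P cows, 5 of 6 lay above the highest NP cow, and the exception was P617, which fell among the NP cows. With P617 counted as NP the groups would not overlap, with 3680.7 in P904 as the lowest P and 3299.3 in NP238 as the highest NP. The P cows averaged 3743 ± 400 (SD, n = 6) and the NP cows 3040 ± 269 (SD, n = 5), 1.23 times higher in P cows. The log2 fold change was -0.30 (SE 0.110), ranged from -0.35 to -0.26 with each cow left out, and was -0.37 (SE 0.0986) without P617 and P1541. The differences of SOD3 and CAT thus had opposite signs.

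The peroxiredoxins reduce peroxides through a reactive cysteine. PRDX1 (ENSBTAG00000003642) had 3013.9, 3960.4, 4492.0, 3925.1, 4577.2 and 4176.2 normalized counts in P617, P904, P1541, P1631, P1753 and P2396, and 2912.9, 3282.1, 3864.1, 3519.3 and 5019.2 in NP238, NP638, NP856, NP2541 and NP2810. The NP cows spanned the wider range, with NP2810 the highest and NP238 the lowest of all cows. PRDX6 (ENSBTAG00000004855), which also acts on phospholipids, had 4561.5, 5821.8, 5398.9, 6197.8, 6048.9 and 5405.8 normalized counts in the P cows and 4811.4, 4180.0, 4792.2, 5183.3 and 5626.8 in the NP cows, in the same order. For PRDX6, 3 P cows lay above the highest NP cow, and NP638 was the lowest cow. The groups overlapped for both, and P617 was the lowest P cow for both. The log2 fold changes were -0.13 (SE 0.158) for PRDX1 and -0.18 (SE 0.121) for PRDX6, and were -0.18 and -0.26 without P617 and P1541.

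Thioredoxin reductase TXNRD1 (ENSBTAG00000013912), a selenoenzyme, was the most variable member. It had 1172.6 normalized counts in P617, 6665.8 in P904, 5121.1 in P1541, 15548.6 in P1631, 11098.2 in P1753 and 13559.6 in P2396. The NP cows had 7581.7 in NP238, 8361.9 in NP638, 9928.4 in NP856, 8567.0 in NP2541 and 5713.4 in NP2810. The highest P cow was 13.3 times the lowest, against 1.74 times in NP cows, and the P cows lay on both sides of the NP cows. The P cows averaged 8861 ± 5472 (SD, n = 6) and the NP cows 8030 ± 1547 (SD, n = 5). The log2 fold change was 0.23 (SE 0.566), opposite in sign to the difference of the means, ran from -0.27 to 0.47 over the fits that omitted 1 cow each, and was -0.50 (SE 0.249) without P617 and P1541, so its direction rested on single cows.

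**Figure D2:**
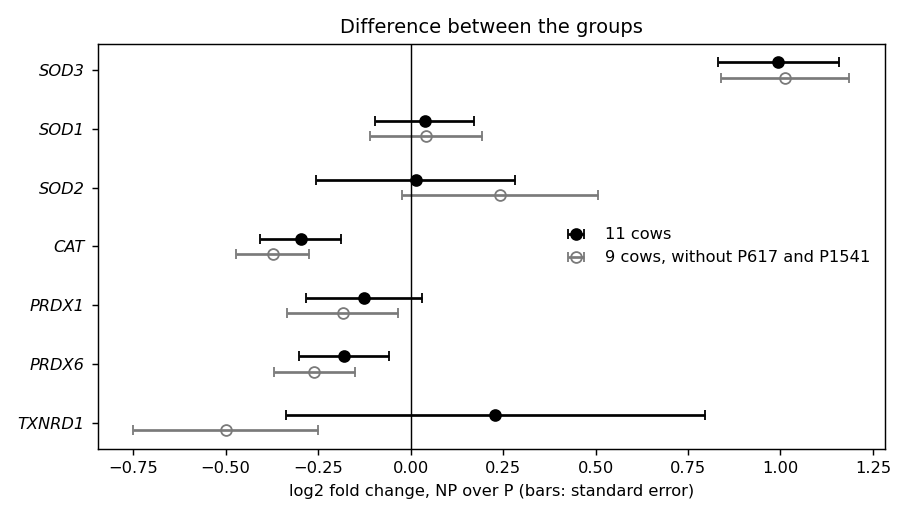
Log2 fold change (NP over P) of each member with its standard error from limma, over all 11 cows (filled) and over the 9 cows without P617 and P1541 (open). SOD3 stays near 1 in both (0.99 and 1.01), CAT stays below 0 (-0.30 and -0.37), and TXNRD1 moves from 0.23 to -0.50.

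Across the 7 members, 4 log2 fold changes were above 0 and 3 below, with a median of 0.01, against 50.2% above 0 and a median of 0.0018 over the 15081 genes tested. SOD3 was 1 of 7 members without overlap between the groups, where 1.09% of all genes did not overlap (0.855% with NP cows above and 0.239% with P cows above). With limma and the Benjamini-Hochberg adjustment at 0.1, 0 of 7 members and 0 of 15081 genes (0%) were called. At an unadjusted threshold of 0.05 there were 2 members, SOD3 and CAT, and 1182 genes (7.84%), of which 5.49% of the genes tested were higher in NP cows, as SOD3 was, and 2.35% in P cows, as CAT was. The quasi-likelihood test of edgeR on the recovered reads also called 0 genes (0%), with 1151 genes (7.63%) at the unadjusted threshold. DESeq2 called 201 genes (1.33%), of which 170 were higher in NP cows (1.13%) and the rest in P cows (0.206%), and SOD3 was the only member among them. In simulated data 32.5% of the genes called by DESeq2 were unchanged genes, against 9.3% for limma and 8.7% for edgeR. In the same data limma recovered 33.3% of the genes changed by a log2 of 1, edgeR 31.0% and DESeq2 48.8%. All 3 tests thus missed most changes of that size. With limma SOD3 was called when P904 was left out, together with 170 other genes (171 in all, 1.13%, with 1.11% higher in NP cows), and it was not called without P617 and P1541, where 17 genes (0.113%) were called. Because the members were chosen from this contrast, these counts are printed beside the background and nothing is read from them.

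The markers of several cell types differed between the groups in the same direction as SOD3. In a biopsy, fewer cells of a type and less RNA per cell cannot be told apart. All 10 endothelial markers were higher in NP cows on the log2 scale, with a summed level of 4869 to 14968 normalized counts in P cows and 9048 to 16424 in NP cows. All 10 stromal markers were higher in NP cows, with sums of 137962 to 413756 in P cows and 285632 to 384005 in NP cows. The 10 leukocyte markers were also all higher, with sums of 471 to 1047 and 822 to 1763. Of 11 epithelial markers 8 were higher in NP cows, with sums of 2964 to 29542 and 12914 to 19063, and 0 of 9 smooth muscle markers were, with sums of 84293 to 667850 and 41812 to 282736. None of the markers in these 5 lists was at 0 in all cows. Red blood cell markers were near 0, with sums of at most 13.1 normalized counts, and SLC4A1 and a row for HBA were at 0 in all cows.

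With the mean marker score of one list at a time added to the limma fit, the log2 fold change of SOD3 was 0.93 for smooth muscle, 1.00 for epithelium, 0.91 for stroma, 0.93 for endothelium and 0.80 (SE 0.206) for leukocytes. The covariates other than smooth muscle were chosen after seeing the data. For CAT the log2 fold change lay between -0.38 with the smooth muscle score and -0.21 with the stroma score. For TXNRD1 it ran from -0.54 with the endothelium score to 1.21 (SE 0.341) with the stroma score, and for SOD2 from -0.18 with stroma to 0.52 with endothelium. SOD1 ran from -0.20 with leukocytes to 0.04 with epithelium. SOD3, CAT, PRDX1 and PRDX6 thus kept their sign with each score, and SOD1, SOD2 and TXNRD1 did not. With the stroma score PRDX1 was at -0.071 (SE 0.176) and PRDX6 at -0.087 (SE 0.117), each nearer to 0 than its SE. The part of each cell type in the difference of SOD3 was not tested beyond these fits.

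Whether members varied together among cows was examined after the group mean had been removed from each, so that the difference between P and NP cows did not enter. Of 21 pairs, 0 passed the Benjamini-Hochberg adjustment at 0.1 by Pearson's r or by Spearman's rho (two-sided exact permutation within groups, 11 cows), and 3 passed 0.05 by r before adjustment. SOD1 and SOD3 had an r of 0.56 (exact permutation p = 0.0320, adjusted p = 0.268) and a rho of 0.53 (exact permutation p = 0.0911, adjusted p = 0.73). Their r was 0.43 without NP2541 and NP2810, the cows farthest from the median of SOD1, and 0.65 without P617 and P1541. PRDX1 and PRDX6 had an r of 0.69 (exact permutation p = 0.0297, adjusted p = 0.268) and a rho of 0.48 (exact permutation p = 0.156, adjusted p = 0.73). The r of this pair was 0.32 without P617 and NP2810 and 0.59 without P617 and P1541. CAT and TXNRD1 had an r of 0.69 (exact permutation p = 0.0457, adjusted p = 0.268) and a rho of 0.30 (exact permutation p = 0.397, adjusted p = 0.73). That relation rested on few cows, since r was 0.33 without P617 and NP2541, the cows farthest from the median of CAT, and 0.06 without P617 and P1541.

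The same was done for the 7 members against the 5 marker scores, in 35 relations. By r, 6 were called at an adjusted p-value of 0.1, and 2 of them also by rho. TXNRD1 fell as the stromal score rose, with an r of -0.87 (exact permutation p = 0.000359, adjusted p = 0.00709) and a rho of -0.91 (exact permutation p = 0.00226, adjusted p = 0.0776). Leaving out P617 and P1541, the cows farthest from the median stromal score, gave an r of -0.94. Centring the other 9 cows again gave -0.89 (exact permutation p = 0.0108, adjusted p = 0.188). The cows with the lowest stromal scores, P1631, P2396 and P1753, were the cows with the highest TXNRD1.

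PRDX6 rose with the epithelial score, with an r of 0.79 (exact permutation p = 0.000405, adjusted p = 0.00709) and a rho of 0.76 (exact permutation p = 0.00443, adjusted p = 0.0776). It had an r of 0.63 without P617 and P1631, the cows farthest from the median epithelial score. The other called relations were called by r alone and weakened without the farthest cows. They were TXNRD1 with epithelium, at 0.93 (exact permutation p = 0.00541, adjusted p = 0.0631; rho 0.71, exact permutation p = 0.0418, adjusted p = 0.292; r 0.61 without P617 and P1631), and CAT with epithelium, at 0.77 (exact permutation p = 0.0117, adjusted p = 0.0803; rho 0.53, exact permutation p = 0.0920, adjusted p = 0.333; r 0.15 without P617 and P1631). PRDX6 with smooth muscle had an r of -0.75 (exact permutation p = 0.0137, adjusted p = 0.0803; rho -0.70, exact permutation p = 0.0312, adjusted p = 0.292) and -0.36 without P617 and NP638. SOD2 with leukocytes had an r of -0.66 (exact permutation p = 0.0138, adjusted p = 0.0803; rho -0.57, exact permutation p = 0.0591, adjusted p = 0.295) and -0.35 without P904 and NP2810. Without P617 and P1541, 0 of the 35 relations were called in the 9 cows left. In these cows, centred again, r was -0.78 for SOD2 with leukocytes (exact permutation p = 0.00660, adjusted p = 0.188), larger in size than over all cows. It was 0.43 for TXNRD1 and 0.40 for CAT with epithelium. For PRDX6 it was 0.63 with epithelium and -0.61 with smooth muscle.

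**Figure D3:**
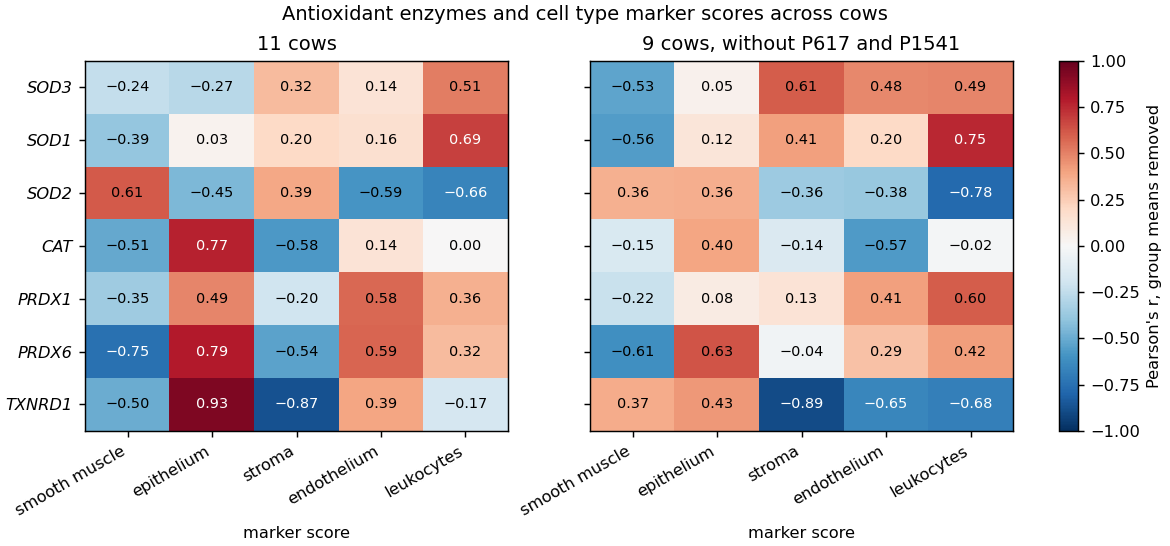
Pearson's r of each member (rows) with the marker score of 5 cell types (columns) after removal of group means, over 11 cows (left) and over 9 cows without P617 and P1541 (right), coloured from -1 (blue) to 1 (red). The relation of TXNRD1 with stroma keeps its size (-0.87 and -0.89), whereas those of TXNRD1 and CAT with epithelium are smaller on the right.

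Within groups SOD3 followed none of the 5 scores at the threshold. Its r was 0.51 with leukocytes (exact permutation p = 0.117, adjusted p = 0.270; rho 0.56, exact permutation p = 0.0874, adjusted p = 0.333; r 0.11 without P904 and NP2810). With stroma r was 0.32 (exact permutation p = 0.405, adjusted p = 0.545; rho 0.28, exact permutation p = 0.440, adjusted p = 0.670; r 0.48 without P617 and P1541). Centring the cows left after omission of P617 and P1541 again gave an r of 0.61 with stroma (exact permutation p = 0.167, adjusted p = 0.488). With endothelium r was 0.14 (exact permutation p = 0.752, adjusted p = 0.798; rho 0.29, exact permutation p = 0.404, adjusted p = 0.670; r 0.38 without P617 and P904). With few cows in each group, relations of this size could not be told from 0.

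**Figure D4:**
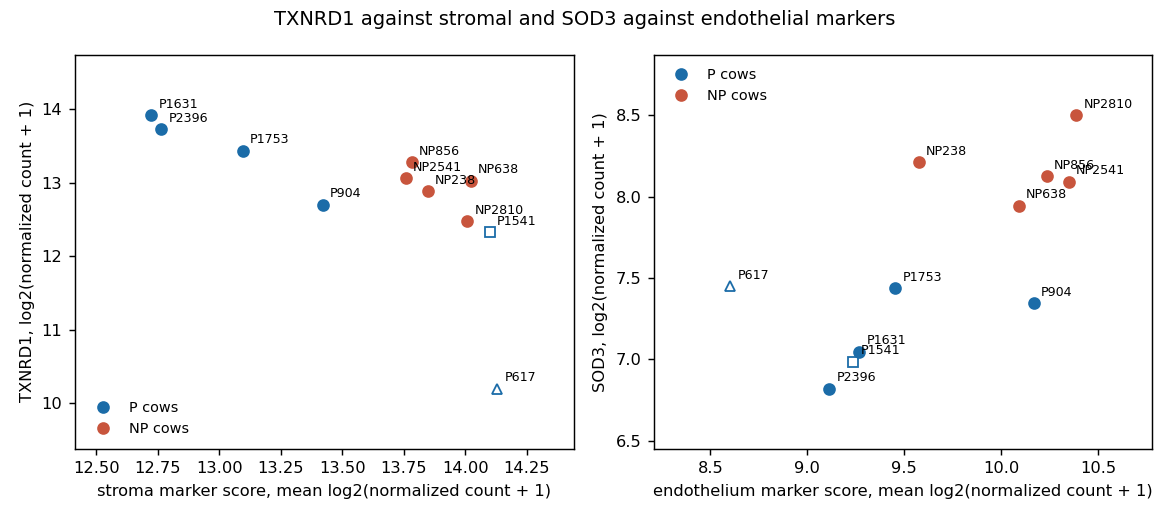
Left, TXNRD1 against the stromal marker score, and right, SOD3 against the endothelial marker score, both as log2(normalized count + 1), for P cows (blue) and NP cows (red); the triangle is P617 and the square P1541. TXNRD1 falls with the stromal score (r -0.87 within groups), and SOD3 has an r of 0.14 with the endothelial score within groups.

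The genes whose pattern among cows was most like that of SOD3 were taken by the highest r over the 11 group-centred cows, as a description without a test. They were RALYL (0.91), RIPK1 (0.90), ANGPTL4 (0.89), RASAL3 (0.88), KLK5 (0.88), FKBP4 (0.87), NCALD (0.86), GABRD (0.86), KLF11 (0.85) and RER1 (0.85). Without P617 and P1541 the r of NCALD was 0.97, that of RER1 0.95 and that of RIPK1, a kinase of cell death and inflammatory signalling, 0.88. KLK5, a secreted serine protease, was the only one of the 10 whose groups did not overlap, beside 1.09% of all genes, and nothing is read from this count. It had an average of 70.2 ± 51.5 normalized counts across P cows (SD, n = 6) and of 214 ± 83.4 across NP cows (SD, n = 5). ANGPTL4, an inhibitor of lipoprotein lipase, had 72.4 ± 30.4 (SD, n = 6) and 150 ± 65.2 (SD, n = 5), and FKBP4, a co-chaperone of steroid hormone receptors, had 5977 ± 1088 (SD, n = 6) and 5493 ± 1137 (SD, n = 5).

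Among other redox genes, 87 were listed by role, of which 82 were matched to 83 rows and 75 passed the filter on low values. With limma 0 of 75 were called, as with edgeR and DESeq2 (beside 0%, 0% and 1.33% of all genes), and the smallest adjusted p-value in limma was 0.554, for CYBB. Without adjustment, 6 of 75 (8%) passed 0.05, beside 7.84% of all genes. The median log2 fold change was 0.04, beside 0.0018 over all genes, and 41 were above 0 and 34 below. Groups that did not overlap were found for 0 of 75, beside 1.09% of all genes, a share too small to be read in a list of this size.

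By role, 8 of 9 tested oxidant-producing enzymes had a log2 fold change above 0, with a median of 0.49, whereas 5 of 5 genes of NADPH supply and 7 of 8 haem, iron and quinone enzymes were below 0. The exception among the oxidant-producing enzymes was CYBB, the catalytic subunit of the phagocyte NADPH oxidase, with an average of 121 ± 21.3 normalized counts across P cows (SD, n = 6) and of 88.4 ± 12.4 across NP cows (SD, n = 5) and a log2 fold change of -0.44 (SE 0.176). NOS3, the endothelial nitric oxide synthase, had 156 ± 79.8 (SD, n = 6) and 306 ± 94.0 (SD, n = 5), and NCF4, a cytosolic subunit of the phagocyte oxidase, had 5.37 ± 5.05 (SD, n = 6) and 14.0 ± 7.41 (SD, n = 5), which rests on few reads. NOS3 and NCF4 were named after their values were seen. The leukocyte and endothelial markers were also higher in NP cows, 10 of 10 in each list. The log2 fold change of NOS3 was 1.13, with 0.60 without P617 and P1541, -0.21 with the endothelium score in the fit and 0.88 with the leukocyte score. That of NCF4 was 1.33, with 1.25 without P617 and P1541, 0.51 with the endothelium score and 0.45 with the leukocyte score.

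The other genes that passed 0.05 without adjustment were higher in P cows. ME1, the cytosolic malic enzyme that makes NADPH, had an average of 244 ± 103 normalized counts across P cows (SD, n = 6) and of 153 ± 22.2 across NP cows (SD, n = 5), and P617 was highest at 427. Its log2 fold change was -0.59 and was -0.32 without P617 and P1541. GLRX2, the mitochondrial glutaredoxin, had 162 ± 25.0 (SD, n = 6) and 126 ± 16.9 (SD, n = 5). EEFSEC, the elongation factor that brings selenocysteine to the ribosome, had 372 ± 72.7 (SD, n = 6) and 281 ± 50.1 (SD, n = 5). ME1, GLRX2 and EEFSEC had an adjusted p-value of 0.634, 0.621 and 0.607 in limma.

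In the remaining roles the gene with the smallest p-value had an adjusted p-value of 0.724 to 0.863 in limma. The log2 fold changes were 0.48 for ATP7A, which loads copper into secreted enzymes, 1.62 for GPX6, -0.18 for PRDX4, the peroxiredoxin of the endoplasmic reticulum, and -0.14 for GSR, which regenerates glutathione. They were -0.34 for BLVRB, 0.24 for the transcription factor NFE2L1, -0.60 for MSRB3 and 0.34 for MT2A, a metal-binding metallothionein whose counts are uncertain because close paralogs can share reads. Without P617 and P1541 they were 0.21 for ATP7A, 0.70 for GPX6, -0.11 for BLVRB, 0.11 for NFE2L1, -0.079 for MSRB3, 0.040 for MT2A and 0.051 for PRDX4. The signs of PRDX4, MSRB3 and MT2A also changed with some covariates. GPX6 was low, at an average of 11 ± 8.76 normalized counts across P cows (SD, n = 6) and of 36.0 ± 33.3 across NP cows (SD, n = 5), with P617 at 0. GPX5, SLC7A11, NOX1, NOX4, NOX5, DUOX1, DUOX2 and MT3 were below the filter.

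**Figure D5:**
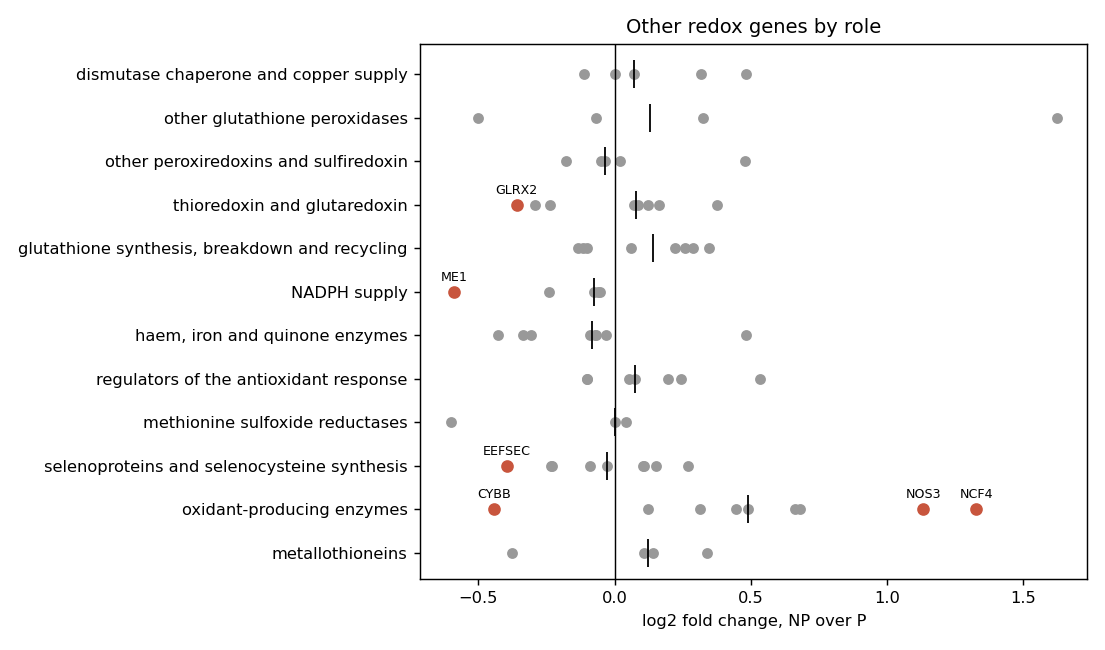
Log2 fold change (NP over P) of the 75 other redox genes that were tested, by role (rows), with the median of each role as a vertical tick; red points with names are the 6 genes at an unadjusted p-value under 0.05. Oxidant-producing enzymes lie mostly right of 0 (8 of 9) and genes of NADPH supply left of it (5 of 5).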

How the data were processed

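RNA-Seq libraries from 11 cows were analysed. The authors filtered the paired-end reads, mapped them to the masked Bos taurus UMD3.1 assembly with Bowtie2 2.1.0, counted them per gene with HTSeq 0.5.4p2 and normalized the counts with DESeq2 1.12.1. The deposited values are a signal, the normalized count of each gene in each cow. Reads of Bos indicus cows were thus counted on a Bos taurus genome. Use of strand is not given in the sources used here. All values (100%) were whole reads within 0.001 after division by the value of 1 read in that cow. Of the 55 pairs of libraries the least different, NP238 and NP856, differed in reads at 98.3% of tested genes, so no library was counted as a repeat.

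The tests planned for normalized values were used. Genes with a mean of at least 5 were compared on log2(value + 1) with limma 3.58.1 in R 4.3.3, with edgeR 4.0.16 and DESeq2 1.42.0 on recovered reads as alternatives. The fits were tested on simulated data with 200 changed genes. Of these genes limma recovered 58.5%, edgeR 58.0% and DESeq2 71.5%. At a log2 change of 1 they recovered 33.3%, 31.0% and 48.8%. Unchanged genes made up 9.3% of the calls of limma, 8.7% of those of edgeR and 32.5% of those of DESeq2. Correlations used log2 values centred on group means, permuted within groups. The plan foresaw 45 pairs of members and 60 relations with marker scores, and 21 and 35 could be computed.

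The members and gene lists were chosen with earlier results of these data known. The other redox genes named were, in each role, the gene with the smallest p-value and any gene without overlap, and NOS3 and NCF4 were added after their values were seen. Genes like SOD3 were the 10 with the highest r. Positions and sequences are not given here. Alternatives were other tests, scalings, filters, pseudocounts, covariates and leaving out cows.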

Additional observations from a re-analysis of the deposited data

Results flagged for a closer look

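Of 58 groups of cows examined for 1 cow lying far from the rest of its group, 4 were flagged, and chance flags about 1 in 20. SOD2 was low in NP2810, with 131 normalized counts where the rest of the NP cows had 174 to 190. PRDX1 was low in P617, at 3014, against 3925 to 4577 in the other P cows. Among the other redox genes, ME1 was low in NP238, at 114, against 155 to 171 in the other NP cows, and MT2A was low in NP638, at 81.2, against 199 to 258.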

How the results depend on the processing

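SOD3, CAT, PRDX1 and PRDX6 kept the sign of their log2 fold change under every alternative run. PRDX1 came nearest to 0 at -0.044 without NP238, and PRDX6 at -0.087 with the stroma score. No paired analysis was possible because the cow numbers are not shared between the groups. The number of genes called by limma, 0 in the main fit, was 201 with DESeq2, 17 without P617 and P1541, and 0 to 171 with each cow left out (171 without P904). With covariates chosen after seeing the data it was 109 with the epithelium score and 4097 with the stroma score, where 22 of the other redox genes were also called against 0 in the main fit. The cause was not tested. Of the 35 relations with marker scores, 6 were called in the main analysis, 0 without P617 and P1541, 2 without removal of group means, and 1 to 5 with each cow left out. Among the members, the log2 fold changes of SOD1 (-0.20 with the leukocyte score and -0.092 without NP2810), SOD2 (-0.18 with the stroma score and -0.069 with DESeq2) and TXNRD1 (-0.50 without P617 and P1541, -0.27 without P617 and -0.13 with edgeR) changed sign. Among the other redox genes named by rule, those that changed sign were PRDX4 (-0.18), which was 0.019 with the smooth muscle score and 0.051 without P617 and P1541, MSRB3 (-0.60), which was 0.31, 0.16 and 0.17 with the smooth muscle, endothelium and leukocyte scores, and MT2A (0.34), which was -0.30 and -0.24 with the smooth muscle and leukocyte scores. Genes near the filter rest on few reads, so their values carry more counting error.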
